A study of Rattus norvegicus with 38 samples.

Results

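Peripheral blood mononuclear cells (PBMC) of rats that had received no transplant were compared between 2 inbred strains, Brown Norway (BN) and Dark Agouti (DA). The samples were chosen by their labels as untransplanted, and they comprise 6 of the 38 arrays of the series, 3 from BN rats and 3 from DA rats. The whole series examined strain and rejection in a heterotopic heart transplant model in which a DA heart is placed in a BN recipient (allograft) or in a DA recipient (isograft). The remaining PBMC arrays come from 5 BN allograft recipients and 9 DA isograft recipients on post-transplant day 6, and those recipients were processed in another batch than the untransplanted rats. No BN or DA rat of the comparison carried a graft, and the labels give neither sex nor age. Each array measured 1 rat, so that the error given for PBMC below is a spread between rats of the same group. It was pooled over all 20 PBMC arrays, so that it includes the spread among the graft recipients and not only that among the 6 compared rats. For a single probeset it can therefore be wider or narrower than the spread of those 6. The mean of each strain rests on 3 arrays, which limits its precision.

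PBMC are the lymphocytes, monocytes and natural killer (NK) cells that a density gradient separates from red cells and granulocytes. T cells recognise peptides on molecules of the major histocompatibility complex (MHC), which is named RT1 in the rat. Class I molecules present peptides from inside the cell to CD8 T cells, and class II molecules of monocytes, dendritic cells and B cells present ingested peptides to CD4 T cells. BN and DA carry different RT1 haplotypes.

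Signals are given in array medians, that is, the deposited signal divided by the median signal of the same array over all probesets that are not controls. A probeset is a set of short probes for 1 transcript, and a gene may have several. Levels of different probesets are not compared with each other. Before this scaling the median signal was 22.2 to 23.7 on the BN arrays and 20.2 to 21.2 on the DA arrays. The ratio of 3' to 5' signal of the actin control, a sign of intact RNA, lay between 1.14 and 1.18 on the BN arrays and between 1.08 and 1.14 on the DA arrays. For hexokinase it was 44.0 on the third BN array and 2.29 to 3.82 on the other 5 arrays. The median absolute log2 difference between 2 arrays was 0.16 to 0.22 within BN, 0.16 to 0.27 within DA, and 0.29 to 0.38 between a BN and a DA array, over 16199 probesets past the signal criterion given next.

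Calls required an adjusted p (Benjamini-Hochberg, limma) no higher than 0.10, a 3-fold or larger change, and a signal reaching the median of its array in 50% or more of the BN or of the DA rats. By these criteria 325 of 31042 probesets (1.05%) differed between untransplanted BN and DA rats. Of these, 132 (0.425% of all probesets) were higher in BN and 193 (0.622%) were lower in BN, so that 40.6% of the called probesets were higher in BN. On the signals as deposited, without the division by the median, 189 of 355 called probesets were higher in BN (53.2%), and the median log2 change over all probesets was 0.08, against -0.08 here. The 3 BN and 3 DA arrays did not overlap for 323 of the 325, which the criteria nearly ensure, against 28.7% of all probesets and 35.5% of genes. By the adjusted p alone, 2622 probesets (8.45%) passed, and 5691 had an unadjusted p under 0.05. In a fit of the 6 untransplanted arrays alone 1523 passed the adjusted p, and 274 were called. The change was over 8-fold for 80 probesets, 31 of them higher and 49 lower in BN. In 121 of the 325 the strain with the lower signal averaged under 0.5 array medians, where the size of a ratio rests on weak signals. With 0.25 array medians added to every signal 241 probesets were called, and in 133 of the 325 both strains averaged at least 1 array median. The called probesets with 1 gene symbol number 201 and stand for 180 genes, and the other 124 have several symbols or none.

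**Figure D1:**
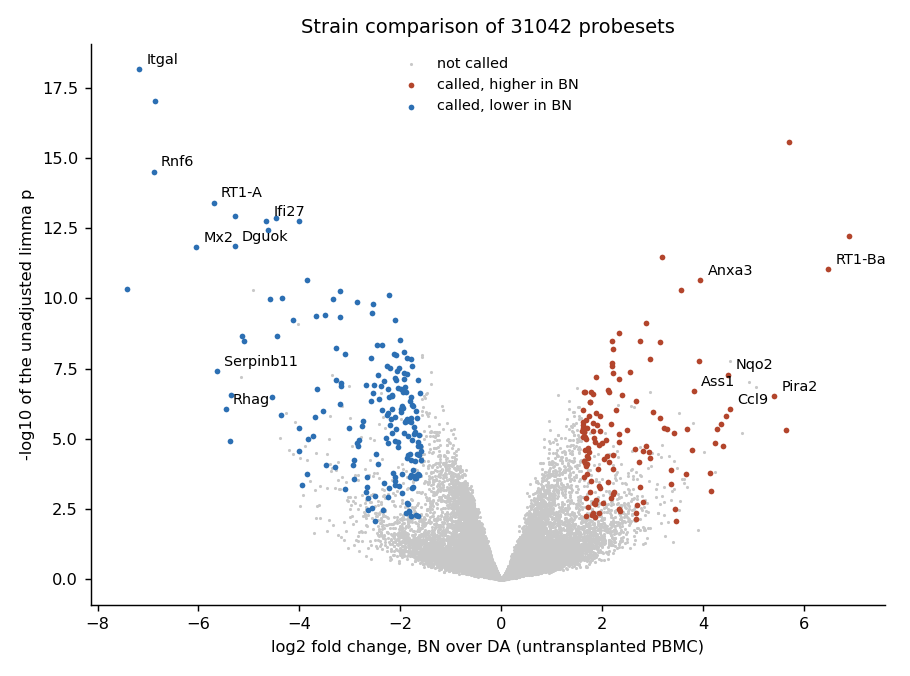
Log2 fold change of BN over DA (horizontal axis) against -log10 of the unadjusted limma p (vertical axis) for 31042 probesets in untransplanted PBMC. The 132 called probesets higher in BN and the 193 lower in BN are coloured, and Itgal, with a log2 fold change of -7.17, lies at the upper left.

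The MHC held some of the widest differences in both directions. A probeset assigned to both RT1-A3 and RT1-A2, class I genes, had 103, 110 and 96.1 array medians in BN rats, against 1.15, 0.930 and 0.620 array medians in DA rats. The probeset of the classical class I gene RT1-A behaved the other way, with 1.00, 1.03 and 1.23 array medians in BN rats and 61.2, 56.8 and 51.2 array medians in DA rats. Each was close to the array median in one strain and far above it in the other. The first was 117.8-fold higher in BN (log2 fold change 6.88, SE 0.38, adjusted p = 1.7e-09 in limma) and the second was 52-fold lower in BN (-5.70, SE 0.27, adjusted p = 2.45e-10).

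RT1-Ba encodes the alpha chain of the class II molecule RT1-B, and its 4 probesets disagreed in direction. The first had 138.3, 170.3 and 154 array medians in BN rats, against 2.03, 2.53 and 1.00 array medians in DA rats. The second had 138.1, 169 and 149 array medians in BN rats, against 3.42, 3.37 and 2.17 array medians in DA rats. Both were higher in BN, 89.1-fold (log2 6.48, SE 0.42, adjusted p = 1.91e-08) and 51.9-fold (5.70, SE 0.20, adjusted p = 2.92e-12). The third had 9.89, 13.5 and 11.6 array medians in BN rats, against 84.9, 73.3 and 52.9 array medians in DA rats. The fourth had 1.12, 1.04 and 1.18 array medians in BN rats, against 28.1, 31.2 and 13.1 array medians in DA rats. These 2 were lower in BN, 5.97-fold (-2.58, SE 0.34, adjusted p = 0.000108) and 20.3-fold (-4.35, SE 0.33, adjusted p = 1.3e-07). A single direction for the RT1-Ba transcript therefore cannot be given from these probesets, whose sequences were not analysed here.

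**Figure D2:**
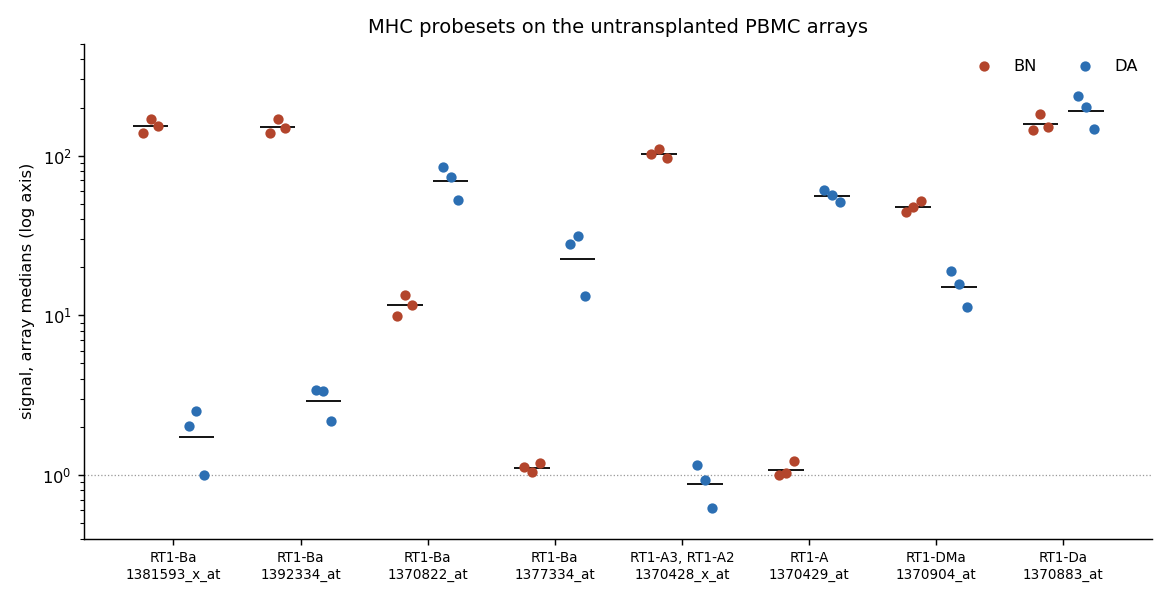
Signal in array medians (vertical log axis) of 8 MHC probesets on each BN array (left of each pair) and each DA array (right), with lines at the means of the log2 values. The 4 probesets of RT1-Ba split into 2 higher and 2 lower in BN, and RT1-Da overlaps between the strains.

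Among 13 measured class II genes, each taken by its brightest probeset, 5 passed an adjusted p of 0.10 in the direction of BN and none in that of DA in limma (also 0 at an unadjusted p under 0.05), while 8 did not pass (median log2 change 0.05). Over all 14217 genes measured this way, 9.83% passed, 4.33% higher and 5.49% lower in BN, and the median was -0.11. The genes that passed include both chains of DM, the molecule that helps load peptides onto class II. RT1-DMa had 44.3, 47.7 and 52.0 array medians in BN rats, against 18.9, 15.7 and 11.3 in DA rats, which is 3.2-fold higher in BN (log2 1.68, SE 0.25, adjusted p = 0.000335). RT1-DMb was 1.96-fold higher (0.97, SE 0.21, adjusted p = 0.00825). Ciita, the transactivator that switches class II genes on, was 2.03-fold higher (1.02, SE 0.24, adjusted p = 0.0168), and Ifi30, a reductase of the endosome, 1.46-fold higher (0.55, SE 0.18, adjusted p = 0.0857). RT1-Ba is the fifth, by the first of its probesets. By either of its 2 probesets that were lower in BN the tally is 4 higher and 1 lower. RT1-Da and Cd74, the invariant chain, overlapped between the strains, with log2 changes of -0.26 (SE 0.22, adjusted p = 0.599) and -0.27 (SE 0.23, adjusted p = 0.6). Without the third BN array, 3 of the 13 passed. After quantile normalization, which gives all arrays the same distribution, 6 were higher and none was lower, and the median change was 0.31. On the signals as deposited it was 0.21.

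Of 30 measured genes of class I and peptide loading, 4 were higher in BN and 7 were lower (median log2 change -0.40). The size of this median rested on the normalization. After quantile normalization 4 were higher and 5 lower with a median of -0.11, and on the signals as deposited 4 and 6 with -0.24. RT1-N2, a nonclassical class I gene, had 1.58, 1.21 and 1.33 array medians in BN rats, against 0.103, 0.0431 and 0.0624 in DA rats, 20.9-fold higher in BN (log2 4.39, SE 0.76, adjusted p = 0.00159). B2m, the light chain shared by class I molecules, had 172, 219 and 172 array medians in BN rats, against 334, 297 and 256 array medians in DA rats, 1.58-fold lower in BN (-0.66, SE 0.20, adjusted p = 0.0605). The RT1-CE genes are a multigene family whose members share sequence, so that their probesets may not measure 1 gene each. RT1-CE10 was 2.67-fold lower in BN (-1.42, SE 0.25, adjusted p = 0.00196) and RT1-CE12 2.63-fold lower (-1.39, SE 0.15, adjusted p = 1.92e-05), whereas RT1-CE16 was 1.75-fold higher (0.81, SE 0.18, adjusted p = 0.0115). Without the third BN array, 2 of the 4 higher genes passed.

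Itgal had the largest difference of the called probesets with 1 gene symbol. It encodes the alpha chain of LFA-1, the integrin by which leukocytes adhere to other cells. Its signal was 0.581, 0.599 and 0.542 array medians in BN rats, against 90.5, 74.5 and 84.2 array medians in DA rats. The BN values lay below the median of their arrays, and Itgal was 144-fold lower in BN (log2 -7.17, SE 0.18, adjusted p = 2.21e-14). Other integrins differed by far less. Itga6 was 2.3-fold lower in BN (-1.20, SE 0.25, adjusted p = 0.00715), Itgb5 was 3.46-fold higher (1.79, SE 0.56, adjusted p = 0.073) and Itgam, the alpha chain of Mac-1, was 2.26-fold higher (1.18, SE 0.35, adjusted p = 0.0551). Of 29 integrin and adhesion genes 4 were higher and 4 were lower in BN, and the count of those higher was 1 without the first BN array and 2 without any of the other 5.

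Pira2 and Ccl9, genes of myeloid cells, were among the 12 that rose most in BN. Pira2 belongs to the paired immunoglobulin-like receptors of myeloid and B cells. It had 27.6, 30.3 and 25.2 array medians in BN rats, against 0.908, 0.731 and 0.415 array medians in DA rats. That is 42.4-fold higher in BN (log2 5.41, SE 0.69, adjusted p = 7.79e-05), and its other probeset was 9.04-fold higher (3.18, SE 0.20, adjusted p = 7.72e-09). The family shares sequence, so that neither probeset need measure Pira2 alone. Ccl9, a chemokine that attracts myeloid cells in the mouse, had 1.92, 1.70 and 1.57 array medians in BN rats, against 0.0391, 0.0454 and 0.235 array medians in DA rats (23.1-fold higher in BN, log2 4.53, SE 0.62, adjusted p = 0.000179).

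Several enzymes were also among them. Nqo2, a quinone reductase, had 3.80, 3.86 and 2.87 array medians in BN rats, against 0.192, 0.227 and 0.0851 array medians in DA rats (22.5-fold higher in BN, log2 4.49, SE 0.50, adjusted p = 2.16e-05). Ass1, which joins citrulline to aspartate in arginine synthesis, had 5.49, 6.86 and 5.13 array medians in BN rats, against 0.289, 0.372 and 0.648 array medians in DA rats (14.1-fold higher in BN, 3.81, SE 0.47, adjusted p = 6.06e-05). Anxa3, a calcium-dependent phospholipid-binding protein, had 7.08, 8.17 and 5.53 array medians in BN rats, against 0.439, 0.448 and 0.452 array medians in DA rats (15.3-fold higher in BN, 3.94, SE 0.27, adjusted p = 4.2e-08). By these probesets the DA arrays lay below the array median and the BN arrays well above it in all 3 genes. A second Anxa3 probeset past the signal criterion had 2.67, 2.93 and 2.61 array medians in BN rats. Its DA signals were 1.66, 1.885 and 1.87 array medians, and the difference did not pass the test (0.60, SE 0.22, adjusted p = 0.13). Sik1, a salt-inducible kinase, was 19.3-fold higher by one probeset (4.27, SE 0.66, adjusted p = 0.000606) and 2.04-fold by the other, brighter one (1.03, SE 0.30, adjusted p = 0.0539). The further genes among the 12 that rose most were the adhesion molecule Cadm3, the transcription factor Ascl3, Lysmd4, RT1-N2, RT1-Ba and LOC100910237, with log2 changes between 4.13 and 6.48. RT1-Ba stands among them by its brightest probeset, and the 2 of its probesets that were called in the other direction had -2.58 and -4.35. Lysmd4 rose by one probeset only, and a second one was lower in BN (-0.72, SE 0.18, adjusted p = 0.0196).

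**Figure D3:**
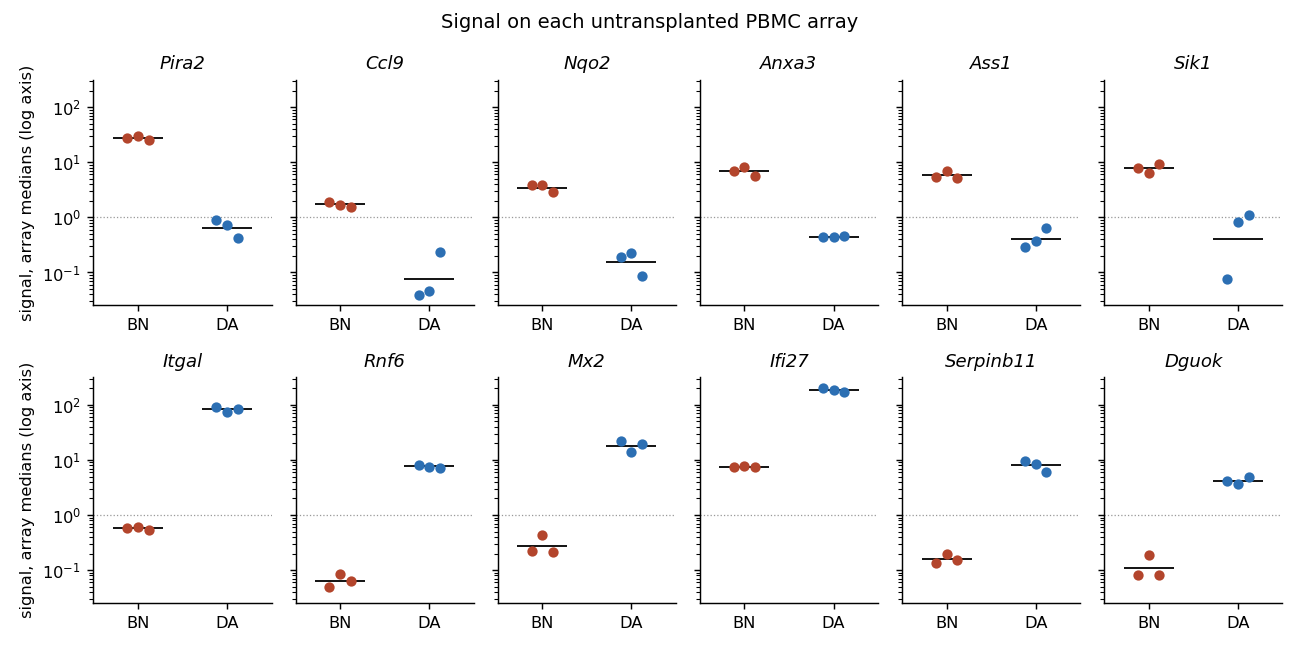
Signal in array medians (vertical log axis, dotted line at 1) of 12 called genes on each BN array (left) and each DA array (right), with lines at the means of the log2 values. The upper 6 genes are higher and the lower 6 are lower in BN, and all 12 were chosen among called genes without overlap between BN and DA arrays.

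Among the genes that fell, Rnf6, a ubiquitin ligase, came after Itgal. It had 0.0489, 0.0866 and 0.0630 array medians in BN rats, against 8.19, 7.43 and 7.29 array medians in DA rats (118.5-fold lower in BN, log2 -6.89, SE 0.28, adjusted p = 2.37e-11). Serpinb11, of the serine protease inhibitor family, had 0.132, 0.199 and 0.153 array medians in BN rats, against 9.63, 8.60 and 6.08 array medians in DA rats (49.9-fold lower, -5.64, SE 0.62, adjusted p = 1.85e-05). Dguok, the mitochondrial kinase of deoxyguanosine, was 39-fold lower by one probeset (-5.29, SE 0.31, adjusted p = 3.59e-09), whereas a second one gave 11.3, 10.4 and 12.9 array medians in BN rats and 12.7, 14.2 and 15.2 array medians in DA rats (-0.28, SE 0.21, adjusted p = 0.537). Prcp, a carboxypeptidase that cleaves angiotensin, was lower in BN by both of its probesets, 34.5-fold (-5.11, SE 0.48, adjusted p = 2.47e-06) and 4.89-fold (-2.29, SE 0.38, adjusted p = 0.00101). Ms4a7, Bglap (osteocalcin), Gpr15lg and Rhag also were among the 12 that fell most, with log2 changes between -4.44 and -5.46. Their BN signals were all below 0.6 array medians.

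Where a called gene had a further probeset past the signal criterion, the probesets could be set side by side. That was so for 61 of the 180 genes. In 46 of them all further probesets pointed the same way as the called one, in 15 at least 1 pointed the other way, and in 18 at least 1 further probeset was itself called. Cd8a, Mx2, Gzmb, Pira2 and Acer2, a ceramidase, are among those called by several probesets in one direction, and RT1-Ba is called in both.

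T cell transcripts were lower in BN. Of 26 measured T cell markers 14 passed as lower in BN and none as higher in limma (also 0 at an unadjusted p under 0.05), while 12 did not pass (median log2 change -0.63, against -0.11 over all genes). The summed signal of the list was 858 to 916 array medians in BN rats and 1452 to 1511 array medians in DA rats. In such a mixture, fewer cells of a type and less RNA per cell cannot be told apart. The coreceptor of cytotoxic T cells had the largest changes. Cd8a had 20.5, 23.0 and 18.6 array medians in BN rats, against 91.9, 80.5 and 73.7 array medians in DA rats. It was 3.97-fold lower in BN (log2 -1.99, SE 0.24, adjusted p = 5.27e-05), and its other probesets were 3.82-fold and 3.43-fold lower. Cd8b had 4.22, 4.56 and 4.04 array medians in BN rats, against 16.01, 17.6 and 15.4 array medians in DA rats (3.82-fold lower, -1.93, SE 0.19, adjusted p = 5.06e-06). Markers carried by all T cells changed less. Cd5 was 2.54-fold lower (-1.35, SE 0.24, adjusted p = 0.0023), Cd2 2.19-fold lower (-1.13, SE 0.26, adjusted p = 0.012) and Cd3e, a chain of the receptor complex, 1.7-fold lower (-0.76, SE 0.20, adjusted p = 0.0291). Cd3g, the brightest marker of the list, had 107, 122 and 103 array medians in BN rats and 159, 155 and 159 in DA rats, without passing the test (-0.52, SE 0.21, adjusted p = 0.186). Cd4, the coreceptor of helper T cells, overlapped, with 10.6, 7.31 and 7.18 array medians in BN rats and 9.86, 8.22 and 2.31 array medians in DA rats (0.52, SE 0.60, adjusted p = 0.718). The count of 14 was 7 without the first or the third BN array, 8 without the first DA array and 9 without the second DA array. After quantile normalization 11 were lower and none was higher, and the median change was -0.39.

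Genes of NK and cytotoxic cells, which partly belong to CD8 T cells as well, were lower too. Of 28 measured, 13 were lower in BN, 1 was higher and 14 did not pass (median log2 change -0.79), and the summed signal was 242 to 309 array medians in BN rats and 484 to 550 array medians in DA rats. The granule proteases led. Gzma had 8.08, 11.5 and 9.37 array medians in BN rats, against 43.6, 35.4 and 44.6 array medians in DA rats (4.29-fold lower in BN, -2.10, SE 0.30, adjusted p = 0.000291). Gzmb was 3.34-fold lower (-1.74, SE 0.27, adjusted p = 0.000522) and, by its other probeset, 4.73-fold lower. Prf1, the pore-forming perforin, was 1.99-fold lower (-0.99, SE 0.23, adjusted p = 0.013), and the activating receptor Ncr1 was 2.74-fold lower (-1.46, SE 0.29, adjusted p = 0.00519). The gene that went the other way was Ncr3, another activating receptor, with 2.67, 2.74 and 2.85 array medians in BN rats and 0.719, 0.803 and 1.08 array medians in DA rats (3.22-fold higher, 1.69, SE 0.26, adjusted p = 0.000572). Without the first BN array 8 genes were lower.

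Among monocyte transcripts more genes were higher than lower in BN, although the summed signal overlapped. Of 24 measured markers of monocytes and macrophages 12 were higher, 1 was lower and 11 did not pass (median log2 change 0.83). The summed signal was 504 to 592 array medians in BN rats and 351 to 528 array medians in DA rats. Lyz2 (lysozyme), the brightest member, overlapped as well and did not pass, with 148, 193 and 145 array medians in BN rats and 272, 216 and 184 array medians in DA rats. Ccr2, the receptor that brings monocytes to inflamed tissue, had 10.8, 13.6 and 8.74 array medians in BN rats, against 4.39, 2.46 and 1.33 array medians in DA rats (4.48-fold higher in BN, log2 2.16, SE 0.57, adjusted p = 0.0308). Mrc1, the mannose receptor, was 4.29-fold higher (2.10, SE 0.39, adjusted p = 0.00284), Emilin2 3.39-fold (1.76, SE 0.23, adjusted p = 0.000114) and the endotoxin receptor Cd14 2.5-fold (1.32, SE 0.38, adjusted p = 0.0462). The exception was Ms4a7, at 0.104, 0.0308 and 0.0611 array medians in BN rats and 2.34, 2.36 and 2.52 array medians in DA rats (41.4-fold lower, -5.37, SE 0.90, adjusted p = 0.00114). The macrophage complement genes C1qa, C1qb and C1qc were below the array median on all 6 arrays. Without the second or the third DA array, and in a fit of the 6 untransplanted arrays alone, 7 were higher.

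Receptors by which myeloid cells read antibodies and ligands were higher as well. Of 27 Fc and paired receptors 14 were higher in BN, 1 was lower (Hcst) and 12 did not pass (median log2 change 0.83), and Clec4a, Clec4a1, Clec4a3 and Fcgr1a stand in the monocyte list too. The lectins Clec4a, Clec12a and Clec7a were 4.64-fold (log2 2.21, SE 0.41, adjusted p = 0.00268), 2.78-fold (1.48, SE 0.29, adjusted p = 0.00494) and 2.69-fold higher (1.43, SE 0.21, adjusted p = 0.000436). Siglec5, a receptor for sialic acid, was 4.29-fold higher (2.10, SE 0.48, adjusted p = 0.0127). Without the second or the third DA array 9 were higher. Of 28 innate sensors 7 were higher and 1 was lower, among them Card9, an adaptor of the lectin receptors (2.67-fold higher, 1.42, SE 0.30, adjusted p = 0.00702), and Tlr2 (2.34-fold higher, 1.23, SE 0.26, adjusted p = 0.00718). The count of 7 was 4 without the first BN, the second BN or the second DA array. C3, the central complement protein, had 48.5, 42.6 and 50.5 array medians in BN rats, against 15.8, 12.9 and 11.9 array medians in DA rats (3.51-fold higher, 1.81, SE 0.28, adjusted p = 0.000684). C5ar1, a receptor for a complement fragment, was 2.65-fold higher (1.40, SE 0.26, adjusted p = 0.00251), and the other 22 of 24 complement genes did not pass. Over all genes 9.83% passed, so the count of complement genes is near the share over all genes.

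Of 17 B cell markers 4 were higher in BN (Cd22, Ebf1, Btk and Cd24) and none was lower in limma (also 0 at an unadjusted p under 0.05), with a median log2 change of 0.46. Cd22, an inhibitory receptor of B cells, had 22.8, 19.7 and 31.5 array medians in BN rats, against 11.9, 12.1 and 11.7 array medians in DA rats (2.03-fold higher, 1.02, SE 0.19, adjusted p = 0.00236). The summed signal was 464 to 604 array medians in BN rats and 333 to 414 array medians in DA rats. The other 3 were 1.73-fold to 1.99-fold higher, and 2 of the 4 passed without the third BN, the first DA or the third DA array. Of 9 dendritic cell markers 0 passed in limma, and 1 had an unadjusted p under 0.05. The 18 neutrophil markers summed to 50.9 to 66.3 array medians in BN rats and 21.5 to 31.0 array medians in DA rats. Of them 5 passed the signal criterion, 11 had a change above 0 and 7 below 0. Higher in BN were 2, Csf3r (3.88-fold, log2 1.96, SE 0.28, adjusted p = 0.000264) and Anxa1 (3.13-fold, 1.65, SE 0.26, adjusted p = 0.000684), both of which monocytes also express. The sums rest largely on these 2 genes. Anxa1 alone had 28.5 to 42.6 array medians in BN rats and 9.06 to 14.1 in DA rats, and Csf3r 10.2 to 11.9 and 2.00 to 4.155. S100a9, a calgranulin of neutrophils and monocytes, had 1.11, 1.82 and 1.76 array medians in BN rats and between 4.31 and 5.08 array medians in DA rats, and the difference did not pass the test (-1.65, SE 0.73, adjusted p = 0.231).

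Cells that a PBMC preparation should largely lack were checked as well. None of the 9 heart muscle and 7 liver genes reached the signal criterion, with summed signals of 2.26 to 2.59 array medians in BN rats and 1.76 to 2.94 array medians in DA rats for heart muscle. Platelet genes were present and were lower in BN. Of 15, 8 were lower and 1, Ppbp, was higher (median log2 change -0.62), and the summed signal was 467 to 768 array medians in BN rats and 771 to 1097 array medians in DA rats. Pf4, the brightest, had 127, 191 and 142 array medians in BN rats, against 281, 255 and 213 array medians in DA rats (1.65-fold lower, -0.72, SE 0.19, adjusted p = 0.0295). The chemokine precursor Ppbp had 21.4, 39.6 and 29.1 array medians in BN rats and 14.6, 14.9 and 9.31 array medians in DA rats (2.3-fold higher, 1.20, SE 0.26, adjusted p = 0.00815). The count of 8 fell to 2 without the first BN array, 5 without the third BN, 3 without the first DA and 4 without the second DA array.

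Red cell transcripts were present on all arrays, and 1 of 26 red cell genes differed at the threshold. The summed signal was 122.8 to 286 array medians in BN rats and 221 to 343 array medians in DA rats. Hbb had 12.1, 126.6 and 105 array medians in BN rats and 49.2, 127.5 and 57.1 array medians in DA rats, so that the first BN array carried the least. Rhag, a membrane transporter that belongs to the Rh complex of red cells, had 0.0465, 0.386 and 0.258 array medians in BN rats, against 9.88, 8.93 and 4.46 array medians in DA rats. It was 44-fold lower in BN (log2 -5.46, SE 0.75, adjusted p = 0.000179), while the red cell genes Hbb (-0.39, SE 0.58, adjusted p = 0.799) and Slc4a1 (0.36, SE 0.80, adjusted p = 0.874) overlapped between the strains. A probeset shared by the beta globins Hbbl1 and Hbb-bs had 0.875, 12.3 and 8.86 array medians in BN rats, against 18.5, 52.6 and 25.5 array medians in DA rats (6.39-fold lower, -2.68, SE 0.66, adjusted p = 0.0215).

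**Figure D4:**
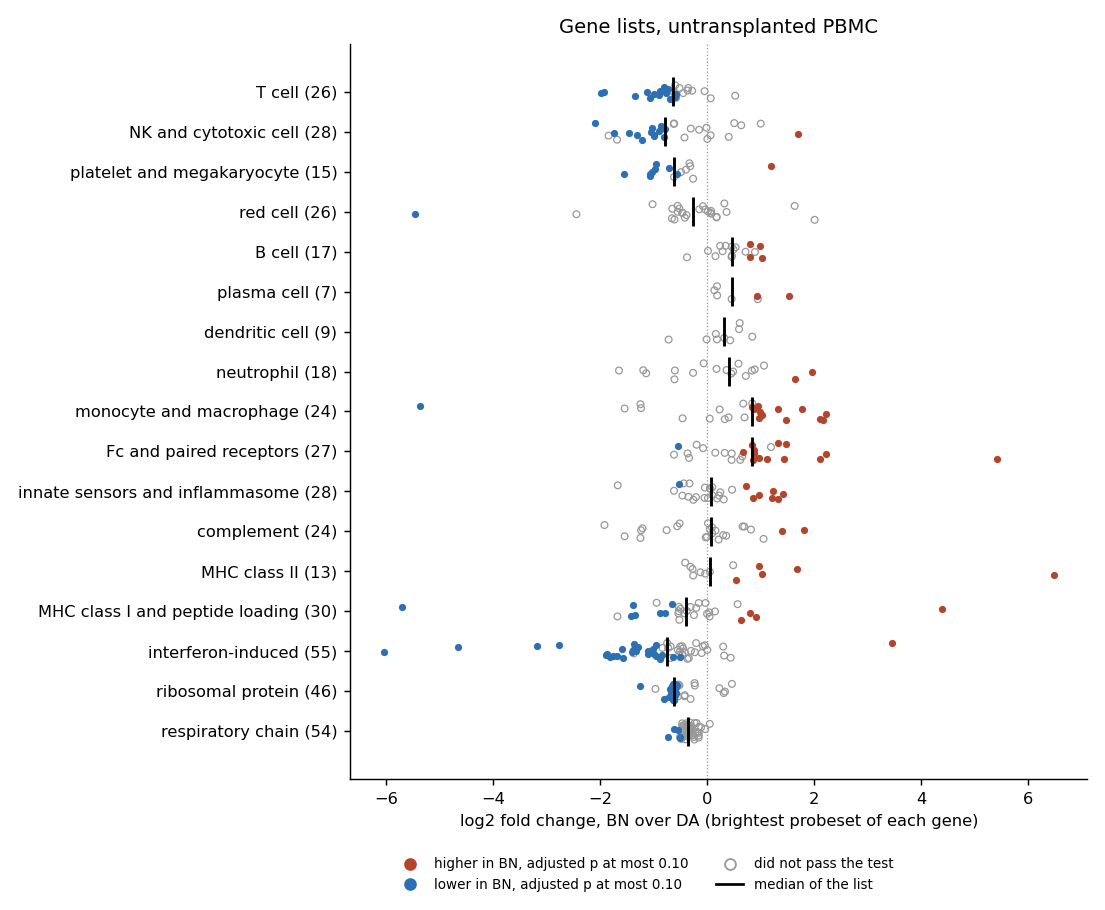
Log2 fold change of BN over DA (horizontal axis) for the members of 17 gene lists, each gene by its brightest probeset, with the number measured in brackets. Filled points passed an adjusted p of 0.10, open points did not, and black lines mark medians, which lie at -0.63 for T cell, 0.83 for monocyte and macrophage and -0.75 for interferon-induced genes.

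Interferon-induced genes were lower in BN. Interferons bind cell surface receptors and switch on antiviral genes, many of which hold a repeated GAAA element in their promoters. Of 55 measured interferon-induced genes 27 were lower in BN, 1 was higher and 27 did not pass (median log2 change -0.75, against -0.11 over all genes), and 50 of the 55 had a change below 0. The summed signal was 757 to 774 array medians in BN rats and 1299 to 1568 array medians in DA rats. Ifi27 had 7.32, 7.64 and 7.39 array medians in BN rats, against 205, 185 and 174 array medians in DA rats. Mx2, a GTPase that blocks viruses, had 0.226, 0.427 and 0.216 array medians in BN rats, against 22.4, 13.8 and 19.5 array medians in DA rats. Ifi27 was 25.2-fold (log2 -4.65, SE 0.24, adjusted p = 6.12e-10) and Mx2 66.2-fold lower in BN (-6.05, SE 0.36, adjusted p = 3.59e-09). The second Mx2 probeset was 3.98-fold lower (-1.99, SE 0.27, adjusted p = 0.000179).

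The other members that passed changed less. The RNA-binding genes Ifit3, Ifit1 and Ifit2, which lie beside each other on the chromosome, were 9.02-fold (log2 -3.17, SE 0.38, adjusted p = 4.5e-05), 6.79-fold (-2.76, SE 0.42, adjusted p = 0.000485) and 3.02-fold lower (-1.59, SE 0.30, adjusted p = 0.00362). Isg15, a ubiquitin-like protein, had 4.67, 4.85 and 6.64 array medians in BN rats, against 22.6, 14.4 and 22.8 array medians in DA rats (3.67-fold lower, -1.88, SE 0.27, adjusted p = 0.000318). Irf7, the transcription factor that amplifies interferon production, had 13.8, 14.4 and 17.04 array medians in BN rats, against 65.4, 39.4 and 50.5 array medians in DA rats (3.37-fold lower, -1.75, SE 0.24, adjusted p = 0.000152). The second DA array was the lowest DA array in Mx2, Ifit3, Isg15 and Irf7. Usp18, Oas1a, Rtp4 and Ifitm3 were 2.96-fold to 3.69-fold lower. The member that went the other way was Oas1b, at 0.802, 1.53 and 1.22 array medians in BN rats and 0.0274, 0.219 and 0.194 array medians in DA rats (10.9-fold higher, 3.44, SE 1.01, adjusted p = 0.0548), and it did not pass without the second BN, the third BN or the first DA array. Its neighbour Oas1a was 3.53-fold lower (-1.82, SE 0.27, adjusted p = 0.000365). With any 1 array left out, 22 to 28 of the 55 were lower. T cell, NK and platelet markers were lower in BN as well, by the summed signals above, and their part in the interferon list was not tested.

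The promoters of 4 of the genes that fell are shown with the element in capitals. They were taken from the 10 of 17 promoters of such genes that hold it. Sequences are those of RefSeq for the assembly GRCr8, which is that of a BN rat, and are printed 5′ to 3′ on the strand of the gene. The motif searched was GAAA, any 2 bases and GAAA again, in the 250 bases before the start of each gene and on both strands, so that TTTC, any 2 bases and TTTC mark it on the opposite strand.
Ifi27, chr6:128355098-128355197, plus strand: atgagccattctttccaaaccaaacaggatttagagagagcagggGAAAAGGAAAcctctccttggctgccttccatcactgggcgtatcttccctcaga
Ifit3, chr1:241527237-241527325, plus strand: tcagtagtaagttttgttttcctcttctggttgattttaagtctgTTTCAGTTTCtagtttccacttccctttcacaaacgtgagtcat
Irf7, chr1:205800038-205800137, minus strand: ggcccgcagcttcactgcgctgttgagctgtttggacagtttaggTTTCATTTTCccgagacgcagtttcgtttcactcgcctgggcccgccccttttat
Isg20, chr1:142239922-142240021, plus strand: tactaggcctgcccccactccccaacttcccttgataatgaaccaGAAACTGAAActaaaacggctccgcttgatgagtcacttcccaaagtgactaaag

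A promoter sequence was at hand for 43 of the 55 interferon-induced genes, and 25 of them (58.1%) held the motif, against 902 of 27457 promoters of all genes (3.28%). Within the list, 10 of 17 promoters of genes lower in BN held it (58.8%) and 15 of 26 promoters of the other members (57.7%). Of 628 promoters of genes lower in BN that are not in the list, 28 held it (4.46%). Both shares within the list lie far above that of all promoters and close to each other, so that the motif does not set the genes lower in BN apart within the list. A match is a description of the sequence, not evidence of binding.

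Chemokines and cytokine genes went both ways. Of 48 chemokines and receptors 7 were higher and 7 lower in BN. Ccr4, a receptor of helper and regulatory T cells, had 3.66, 3.19 and 2.12 array medians in BN rats, against 0.588, 0.619 and 0.378 array medians in DA rats (5.64-fold higher, log2 2.50, SE 0.39, adjusted p = 0.000612). Ccl2, the ligand of Ccr2, had 0.110, 0.357 and 0.0378 array medians in BN rats, against 2.77, 2.37 and 1.97 array medians in DA rats (20.6-fold lower, -4.36, SE 0.62, adjusted p = 0.000255). The ligand was thus lower and the receptor higher in BN, with the signal of the ligand below the array median in BN and above it in DA. The count of 7 lower was 4 without the first DA array. Of 53 cytokines and receptors 7 were higher and 4 lower, and the count of those higher was 11 after quantile normalization and 12 on the signals as deposited. Il18 was 2.77-fold higher (1.47, SE 0.25, adjusted p = 0.00157), Tnfsf13 (APRIL, a survival factor of B and plasma cells) 2.7-fold higher (1.43, SE 0.22, adjusted p = 0.000457) and Il7r, the receptor that sustains naive T cells, 2.1-fold lower (-1.07, SE 0.24, adjusted p = 0.0112).

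Antioxidant and conjugating enzymes went both ways too. Of 49, 7 were higher and 7 lower in BN. Beside Nqo2, the microsomal glutathione transferases Mgst1 and Mgst2 were 2.23-fold (log2 1.16, SE 0.22, adjusted p = 0.00373) and 2.27-fold higher (1.18, SE 0.19, adjusted p = 0.000999). Gpx3, a secreted glutathione peroxidase, had 1.62, 1.82 and 1.24 array medians in BN rats, against 9.59, 9.73 and 5.67 array medians in DA rats (5.25-fold lower, -2.39, SE 0.29, adjusted p = 4.5e-05). Gsto1, of the omega class, was 3.13-fold lower (-1.64, SE 0.19, adjusted p = 3.12e-05).

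Ribosomal protein genes were lower in BN by small steps. Of 46, 30 were lower, none was higher in limma (also 0 at an unadjusted p under 0.05) and 16 did not pass, with a median log2 change of -0.62, and the summed signal was 5969 to 7383 array medians in BN rats and 8748 to 11120 array medians in DA rats. Rpl12 was 1.75-fold lower (-0.81, SE 0.21, adjusted p = 0.0258) and Rpl3 1.63-fold lower (-0.71, SE 0.20, adjusted p = 0.0475). This count rested on the normalization and on single arrays. After quantile normalization, which gives all arrays the same distribution, 1 of the 46 was lower and the median change was -0.02, and 1 or 2 were lower without the first BN, the third BN, the first DA or the second DA array. Gapdh, which served as the PCR reference, is measured with a related sequence by 1 probeset, at 97.0, 123.3 and 100.5 array medians in BN rats and 174, 166 and 127 array medians in DA rats (-0.54, SE 0.21, adjusted p = 0.175). Prss1, a trypsin and another PCR gene, was below the array median on all 6 arrays.

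Some called genes lay side by side in gene order. Of 179 called genes placed in the assembly among 14204 measured genes (1.26%), 15 (8.38%) formed 8 pairs of neighbours, and 6 of the 8 pairs changed in one direction. The 1.26% is the share of genes called. As a gene has a neighbour on either side, both shares are not comparable, and no expected share was computed. They include the Ifit genes, Cd8a with Cd8b, and Thbd with Cd93, receptors of endothelium and monocytes that were both higher in BN (log2 2.17 and 1.67). Reference order was used here and no coordinates were compared with the array.

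The recipients allow the same strains to be set side by side in other rats, where BN rats carried an allograft and DA rats an isograft, so that strain and type of graft cannot be told apart there. Among recipients 323 probesets (1.04%) were called, of which 139 were also called in untransplanted rats, all in the same direction. These are 42.8% of the untransplanted list and 43% of the recipients' list. Itgal was -7.17 (SE 0.18) on the log2 scale in untransplanted rats and -6.56 (SE 0.13) in recipients, Nqo2 4.49 (SE 0.50) and 5.89 (SE 0.34), and Anxa3 3.94 (SE 0.27) and 3.78 (SE 0.19). The difference between both strain comparisons was tested as an interaction over all probesets, and 108 of 31042 (0.348%) passed an adjusted p of 0.10. This count was 53 without the third BN array, 67 without the first DA array and 164 without the third DA array. The clearest was Rnf6, at -6.89 (SE 0.28) in untransplanted rats and -1.34 (SE 0.19) in recipients (difference -5.55, SE 0.34, adjusted p = 1.09e-07). Among cell type lists, the median log2 change was -0.63 in untransplanted rats and -0.77 in recipients for T cell genes, and it was -0.79 in untransplanted rats and -0.06 in recipients for NK and cytotoxic genes. In the same order it was -0.27 and -1.525 for red cell, 0.46 and -0.03 for plasma cell and -0.62 and -0.997 for platelet genes. For monocyte genes it was 0.83 and 0.95, and for B cell genes 0.46 and 0.46. None of these differences was tested.

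**Figure D5:**
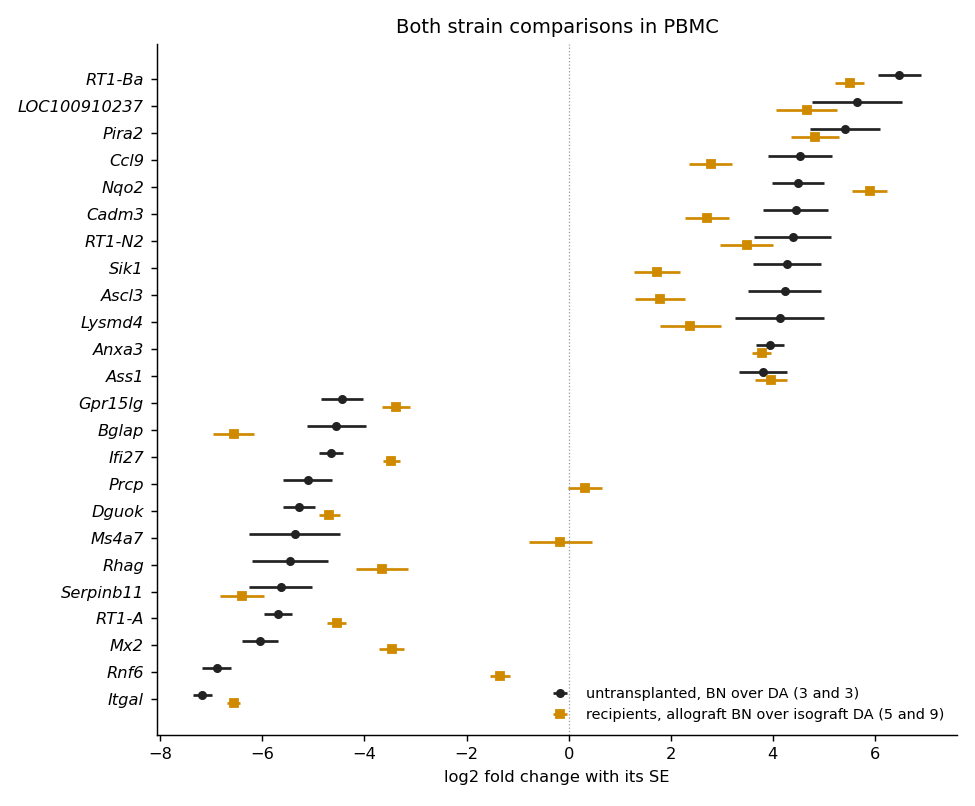
Log2 fold change with its SE (horizontal axis) of the 12 genes with the largest rises and the 12 with the largest falls, for untransplanted BN over DA rats (circles, 3 and 3 arrays) and for BN allograft over DA isograft recipients (squares, 5 and 9 arrays). Prcp and Ms4a7 lie near 0 in recipients, and Itgal lies below -6 in both.

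Native hearts of the recipients allow a comparison with another tissue. The BN hearts come from allograft recipients and the DA hearts from isograft recipients, so that strain and type of graft cannot be told apart there either. Of the 325 called probesets 168 are on the heart array and 92 passed its signal criterion. In native hearts of BN over DA recipients 57 of 15866 probesets (0.359%) were called, and 8 of them were called in untransplanted PBMC as well, all 8 in the same direction (14% of the heart list and 4.76% of the 168). They include RT1-A, at -5.70 (SE 0.27) on the log2 scale in PBMC and -1.94 (SE 0.30, adjusted p = 0.00231) in heart, and the probeset of RT1-A3 and RT1-A2, at 6.88 (SE 0.38) and 5.50 (SE 0.32, adjusted p = 3.33e-08). One RT1-Ba probeset (-4.35, SE 0.33, in PBMC and -2.88, SE 0.44, in heart), Lysmd4, Ythdf2, the beta globin probeset and one shared by Hmgb1 and a related sequence were also called in both. The Hmgb1 probeset had 17.2, 20.4 and 13.1 array medians in BN rats, against 107, 95.7 and 88.3 array medians in DA rats, in untransplanted PBMC (5.82-fold lower, -2.54, SE 0.20, adjusted p = 1.76e-07).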

How the data were processed

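PBMC of 3 untransplanted BN and 3 untransplanted DA rats were measured on RAE230 2.0 arrays, 1 per rat. The values deposited by the authors are MAS5 signal intensities on a linear scale, scaled to a common trimmed mean, and the software's version is not given in the sources used here. Each array was divided by its median over 31042 probesets (57 controls left out) and transformed to log2. limma 3.58.1 under R 4.3.3 (lmFit, eBayes) fitted 4 group means over all 20 PBMC arrays (16 residual degrees of freedom), and 15866 heart probesets in the same way. Tests are two-sided. The signal criterion stands in for the present calls of the study's methods. No array was left out.

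Platform annotation, with symbols updated to GRCr8, gave 1 symbol to 20826 probesets, several to 436 and none to 9780, and 20758 matched the assembly's genes. Genes named are the 12 largest called rises and the 12 largest called falls without overlap between strains, up to 4 members of each of 28 lists, taken by size of change among those past an adjusted p of 0.10, the PCR genes, the brightest cell type markers, MHC and red cell genes, and their other probesets; genes outside it, such as further list members and neighbouring genes, were chosen after their values were seen. The members compared and the lists were chosen with earlier results of these data known. BN and DA rats share replicate numbers, but nothing states that a number pairs them.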

Additional observations from a re-analysis of the deposited data

Results flagged for a closer look

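For 16 of the 260 probesets examined, those named in the text and the list members past the threshold, the strain difference in untransplanted rats differed from that in recipients in limma's interaction test at an adjusted p of at most 0.10, against 108 of all 31042 probesets (0.348%). Most of the 260 were chosen by their change in untransplanted rats, which favours a smaller change in recipients, so both shares are not comparable. All 31 called probesets that passed this test had the smaller change in recipients. The value given is the log2 change in untransplanted rats minus that in recipients. An effect of batch or surgery that is equal in both strains cancels in this contrast. Type of graft, and any effect of batch or surgery that differs between the strains, coincide with it and cannot be told apart.

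For 5 probesets the difference passed whichever of the 6 untransplanted arrays was left out. They are Rnf6 (-5.55, SE 0.34, adjusted p = 1.09e-07), Prcp by its first probeset (-5.43, SE 0.58, adjusted p = 0.000368), the probeset of Hmgb1 and a related sequence (-1.97, SE 0.24, adjusted p = 0.000939), Oas1a (-2.23, SE 0.33, adjusted p = 0.00561) and Mx2 (-2.58, SE 0.43, adjusted p = 0.0175). Prcp was 0.32 (SE 0.33) and Oas1a 0.41 (SE 0.18) on the log2 scale in recipients, against -5.11 and -1.82 in untransplanted rats.

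The other 11 passed in part of the left-out fits or in none. Il1r1, the receptor of interleukin 1, differed by -1.84 (SE 0.35), Ifitm3 by -1.71 (SE 0.34), Prcp by its second probeset by -2.31 (SE 0.46), Gzmb by its second probeset by -1.60 (SE 0.33) and Ms4a7 by -5.21 (SE 1.09). RT1-Ba differed by -1.84 (SE 0.40) and -1.85 (SE 0.41) in the 2 probesets that were lower in BN, Cd8b by -1.07 (SE 0.23), Gstm5, a glutathione transferase, by 1.98 (SE 0.44) and Ccl2 by -3.39 (SE 0.75). The probeset shared by Lgals9 and Lgals5 differed by 2.92 (SE 0.63), being 0.44 (SE 0.52) in untransplanted rats and -2.49 (SE 0.36) in recipients, and passed in 0 of 6 left-out fits.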

How the results depend on the processing

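The alternatives were a fit of the 6 untransplanted arrays alone, quantile normalization, the signals as deposited, 0.25 array medians added, no signal criterion or one at the 65th percentile, unmoderated statistics, a variance trend, a replicate block, the probeset with the largest change for each list gene, and each of the 6 arrays left out. The count of 325 called probesets was 808 without the signal criterion, 199 at the 65th percentile and 241 to 355 in the others without a block, of which 239 (quantile) and 297 (as deposited) were among the 325. Leaving out 1 array gave 313 to 368. Calls among recipients were 205 with 0.25 array medians added and 597 without the signal criterion (323 reported). They were 322 to 324 with 1 untransplanted array left out, which bears on them only through the shared variance and says nothing of their stability. The 108 differences between both strain comparisons became 53 to 164 with 1 array left out.

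Fitting the 6 arrays alone lowered the counts to 7 monocyte, 9 Fc and paired receptor, 2 platelet and 0 ribosomal protein genes, and quantile normalization gave 4 platelet genes and 1 ribosomal protein gene. The 4 B cell genes higher in BN became 1 in the 6 arrays alone, 7 after quantile normalization and 8 as deposited, and the 4 integrin and adhesion genes 6 after quantile normalization and 8 as deposited. Higher in BN were also 11 and 12 cytokine (7 reported), 6 and 6 immediate early (2), 4 and 4 plasma cell (2) and 3 and 4 cell death genes (1) after quantile normalization and as deposited. With 1 array left out the genes past the threshold were 7 to 11 T cell, 8 to 14 NK and cytotoxic, 7 to 14 monocyte, 2 to 9 platelet, 22 to 28 interferon-induced, 9 to 16 Fc and paired receptor and 1 to 29 ribosomal protein genes. Of 108 named probesets, 81 kept direction and side of the threshold in the 6 arrays alone, 94 after quantile normalization, 105 on the signals as deposited, 13 with the replicate block, 85 to 97 with 1 array left out and 107 or 108 in the others. Directions turned for Lyz2 after quantile normalization (0.10), for Hbb without the first BN (0.70) or the second DA array (0.04; range -0.996 to 0.70) and for Prss1 without the third DA array (-0.66; range -0.66 to 1.11), none of which had passed the test. Of 2622 probesets past the adjusted p, 1112 were higher in BN.

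With the replicate number as a block in a fit of the 6 arrays, 0 probesets were called in limma, 0 T cell, NK, monocyte, platelet, interferon-induced, Fc receptor and ribosomal protein genes passed, and 4879 probesets had an unadjusted p under 0.05, against 5962 in the 6 arrays without the block. Deviations of same-numbered BN and DA arrays correlated at 0.02, 0.07 and 0.20, and the second BN array correlated best with the first DA array (0.18), not with its own number. Weak signals limit what can be measured, since 121 called probesets averaged under 0.5 array medians in one strain.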

Other observations

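Basophil and mast cell genes were weak and went both ways. Of 17 genes of eosinophils, basophils and mast cells, 3 were higher and 2 lower in BN (median log2 change -0.04, and 0.12 on the signals as deposited), and 2 of the 17 passed the signal criterion. Hdc, the enzyme that makes histamine, was 3.11-fold higher, and Cma1, the mast cell chymase, was 4.98-fold lower. Of 7 plasma cell genes 2 were higher, Tnfrsf17, the receptor of plasma cells for APRIL, 2.89-fold and Mzb1, a chaperone of antibody assembly, 1.91-fold, against 4 of 7 both after quantile normalization and on the signals as deposited. Without the third BN array 0 plasma cell genes were higher and 0 of the eosinophil, basophil and mast cell genes were lower.

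Respiratory chain genes lay lower in BN by small amounts, and few passed. Of 54, 5 were lower and none was higher in limma (26 lower and 0 higher at an unadjusted p under 0.05). Over all genes 9.83% passed, 5.49% as lower in BN. Of the 54, 53 had a change below 0, and the median log2 change was -0.37, against -0.11 over all genes. The summed signal was 2004 to 2162 array medians in BN rats and 2615 to 2855 array medians in DA rats, without overlap. The genes that passed include Ndufa4 (1.66-fold lower) and Cox7b (1.54-fold lower), and 1 to 3 were lower with any 1 array left out and 2 after quantile normalization, where the median was -0.11. Of 41 cell cycle genes 1 was lower, Ccnd2, a cyclin (1.94-fold). Of 33 cell death genes 1 was higher, Casp12 (1.79-fold), and 1 was lower, Bcl2, an inhibitor of apoptosis (2.53-fold). Of 15 heat shock genes 2 were lower, Hspe1 and Bag3 (1.71-fold and 1.65-fold), and of 28 immediate early genes 2 were higher, Sik1 and Ier5 (2.04-fold and 1.37-fold), although 6 were higher both after quantile normalization and on the signals as deposited and 0 without the first BN, the third BN or the second DA array.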
